A study of Caenorhabditis elegans with 15 samples.

Results

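Transcripts of 6 secreted or cell-surface proteins of the *Caenorhabditis elegans* molt were measured from the end of the last larval stage into the adult. They are the molting genes *mlt-8*, *mlt-9*, *mlt-10* and *mlt-11*, the Kunitz-type inhibitor gene *bli-5* and *acn-1*, which encodes a relative of angiotensin-converting enzyme. The members were the probe sets annotated to a single one of these 6 genes, which gave 12 probe sets out of 20766 that name 1 gene and 6 genes out of 17118. Of these genes, 5 were higher in L4 than in lethargus. Of the 5, *mlt-8*, *mlt-9*, *mlt-11* and *acn-1* were lower again in Adult, while for *mlt-10* lethargus and Adult were not separated. For *mlt-11* this second step was called on 171847_s_at and 194187_x_at and not on 194086_at. *bli-5* was the exception among the 6, and its L4 and lethargus levels overlapped.

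All arrays held total RNA of wild-type N2 (variety Bristol) hermaphrodites fed the bacterial strain DA837, with no mutation, transgene or drug in any group. The 3 stages had 5 arrays each, 15 in all, and animals were picked by hand in batches of 20 after culture at 20 °C. The collection temperature was 22.5 °C for all groups. The L4 group was moving and feeding and was taken 42 h after arrested L1 larvae were fed. The L4-lethargus group was found at 45 to 50 h by its lack of movement and of pharyngeal pumping, and was collected 30 to 40 min after pumping stopped. The Adult group was described as young adults, with no age in hours in the labels used here. Each array is a pool of whole animals, so less RNA per cell and fewer cells of a type cannot be told apart.

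At each molt the epidermis builds a new cuticle beneath the old one, and the animal then sheds the old one. The *mlt* genes are named for the failure to shed the old cuticle that follows their loss, and transcripts of many of them rise and fall once per larval stage in the epidermis. Molting needs proteases that loosen the old cuticle and inhibitors that restrain proteases, and Kunitz domains are a common fold of serine protease inhibitors. Lethargus is the quiescent period around each molt, in which feeding and locomotion stop.

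Values are the deposited log2 values, made per probe set by RMA (robust multi-array average), so a difference of 1 is a doubling. A stage with a mean below 5.38, the 95th percentile of the means of 32 probe sets against RNA of other species, was taken as not above background. A difference was called at a limma adjusted p of 0.05 or less over 22548 probe sets. The markers separated L4 from the later stages. All 10 oocyte and eggshell markers were higher in Adult than in L4, with a mean level of 8.34 to 9.70 over the L4 arrays, 10.71 to 11.32 in lethargus and 12.23 to 12.32 in Adult, and the oocyte list also separated lethargus from Adult. The 3 measured adult-stage markers were called higher in lethargus than in L4 and were not called between lethargus and Adult, with a median difference of -0.11 there. Among them the adult collagen gene *col-19* had means of 7.11 ± 0.26 (L4), 13.19 ± 0.25 (lethargus) and 13.36 ± 0.30 (Adult; SD, n = 5 each). After median-centring of each array, 2 of the 3 adult-stage markers were called lower in lethargus than in Adult (median difference -0.37). The vitellogenin gene *vit-6*, also of this list, had lethargus arrays at 13.56 to 13.69 and Adult arrays at 13.71 to 13.82, without overlap. The arrays of a stage were not all alike. Lethargus replicate 1 lay nearest to L4, with a score of -40.8 on the first principal component against -14.6 to 4.15 for the other lethargus arrays, and Adult replicate 2 correlated least with the arrays of its stage (mean r of 0.9866, others 0.9941 to 0.9945). L4 replicate 3 lay at -28.05 on the second component, against -52.04 to -40.84 for the other L4 arrays.

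**Figure D1:**
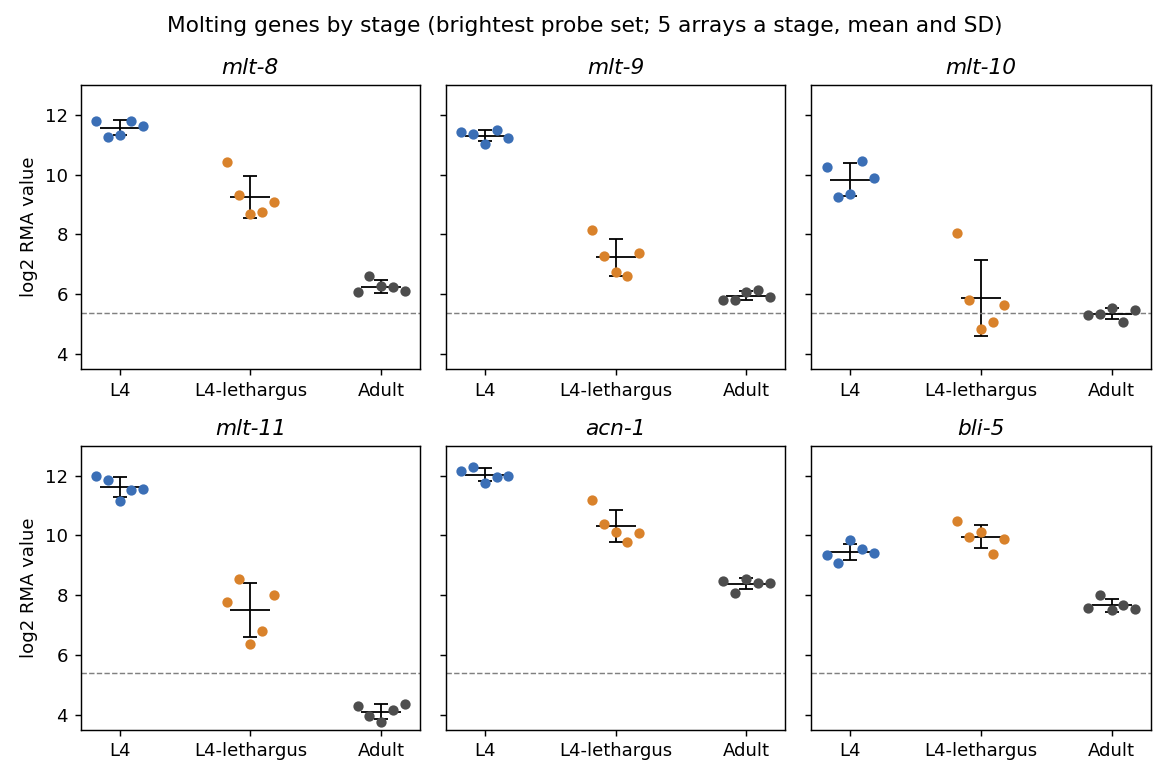
Log2 RMA value (y axis) of the brightest probe set of each of the 6 genes at each stage. Points are the 5 arrays of a stage in replicate order, bars are the mean and SD, and the dashed line is the background level of 5.38. *mlt-8*, *mlt-9*, *mlt-11* and *acn-1* step down from L4 through lethargus to Adult, *mlt-10* falls from L4 and its lethargus and Adult arrays overlap, while *bli-5* does not fall until Adult.

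Lethargus was first set against L4, the feeding stage before it. Here 10 of the 12 probe sets, of 5 of the 6 genes, were lower in lethargus by limma, against 15.3% of all probe sets. On each of these 10 no lethargus array reached the lowest L4 array, which was true of 14.2% of all probe sets. The other 2 probe sets, that of *bli-5* and a dark one of *mlt-11*, were not called. The median difference of the 12 was -3.32 in log2, beside -0.00 over all probe sets.

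*mlt-11* encodes a large secreted protein with many Kunitz domains, which is needed to shed and pattern the cuticle. It lies on chromosome V and had 4 probe sets. On the brightest (171847_s_at) the L4 arrays read 12.00, 11.85, 11.16, 11.52 and 11.56, the lethargus arrays 7.78, 8.53, 6.35, 6.79 and 8.02, and the Adult arrays 4.29, 3.97, 3.75, 4.15 and 4.35. The 3 stages did not overlap, and the Adult arrays all lay below the background level. The transcript was 17.5-fold lower in lethargus than in L4 (log2 difference -4.13, SE 0.32, limma adjusted p = 5.35e-08).

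A second *mlt-11* probe set (194086_at) read 11.82, 11.94, 10.73, 11.28 and 11.25 in L4, 5.95, 6.68, 5.33, 5.54 and 6.68 in lethargus, and 5.10, 5.52, 5.20, 5.52 and 5.19 in Adult. Its fall from L4 to lethargus was 41.3-fold (log2 difference -5.37, SE 0.27, limma adjusted p = 2.23e-10). The *mlt-11* probe set 194187_x_at went from 11.10 ± 0.38 in L4 to 6.83 ± 1.03 in lethargus (SD, n = 5 each), a fall of 19.3-fold. The last probe set, 179352_at, was not above background on any array, at 3.08 to 3.76, and gives no reading of the gene.

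*mlt-9* encodes a secreted molting protein and lies on the X chromosome. Its probe set 194238_x_at read 11.41, 11.35, 11.04, 11.48 and 11.24 in L4, 8.16, 7.29, 6.75, 6.60 and 7.37 in lethargus, and 5.80, 5.81, 6.06, 6.14 and 5.91 in Adult. Every lethargus array lay below every L4 array and above every Adult array. The level in lethargus was 16.8-fold below L4 (log2 difference -4.07, SE 0.22, limma adjusted p = 5.08e-10). The second probe set, 184828_s_at, fell 19.5-fold, from 11.33 ± 0.12 to 7.05 ± 0.64 (SD, n = 5 each).

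*mlt-10* encodes a secreted, proline-rich repeat protein, and its promoter is widely used to drive reporters of the molting cycle. It lies on chromosome II. Its probe set 181793_at read 10.26, 9.24, 9.34, 10.44 and 9.90 in L4, 8.03, 5.82, 4.84, 5.08 and 5.63 in lethargus, and 5.32, 5.33, 5.55, 5.06 and 5.47 in Adult. Lethargus replicate 1, at 8.03, lay far above the other lethargus arrays, and the rest of that stage overlapped Adult. The fall from L4 was 15.5-fold over all lethargus arrays (log2 difference -3.96, SE 0.44, limma adjusted p = 4.39e-06) and at least 21.9-fold without replicate 1, when the lethargus mean was no longer above background.

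The second *mlt-10* probe set, 171945_x_at, was dimmer, at 7.43 ± 0.17 in L4 (SD, n = 5). In lethargus it was above background on 1 of the 5 arrays, replicate 1 at 6.69, and the other 4 read 4.55, 4.09, 4.33 and 4.24. It was at least 4.13-fold lower in lethargus than in L4 (limma adjusted p = 3.08e-05).

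*mlt-8*, another secreted molting protein gene, lies near *mlt-10* on chromosome II and had a single probe set (182327_at). It read 11.81, 11.27, 11.34, 11.81 and 11.63 in L4, 10.43, 9.33, 8.67, 8.76 and 9.07 in lethargus, and 6.08, 6.61, 6.26, 6.24 and 6.09 in Adult. The 3 stages were fully separate, and lethargus replicate 1 was again the highest lethargus array. *mlt-8* was 4.98-fold lower in lethargus than in L4 (log2 difference -2.32, SE 0.25, limma adjusted p = 3.32e-06).

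*acn-1*, on the X chromosome, is made in the epidermis, where it is needed for molting, and its product lacks the residues with which the related enzyme binds zinc. The probe set 173654_at read 12.16, 12.30, 11.74, 11.95 and 12.00 in L4, 11.18, 10.37, 10.10, 9.78 and 10.09 in lethargus, and 8.48, 8.07, 8.55, 8.40 and 8.40 in Adult. The stages did not overlap. Its fall to lethargus was 3.31-fold (log2 difference -1.73, SE 0.20, limma adjusted p = 5.87e-06), the smallest of the 10 called falls. The second probe set, 188527_s_at, fell 6.42-fold, from 9.80 ± 0.27 to 7.12 ± 0.55 (SD, n = 5 each), so the direction was shared between the *acn-1* probe sets and the size was not.

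*bli-5* encodes a short secreted protein with a Kunitz domain, and its mutants have a blistered cuticle. It lies on chromosome III and had a single probe set (177581_at). It read 9.35, 9.08, 9.83, 9.55 and 9.42 in L4, 10.48, 9.95, 10.10, 9.38 and 9.89 in lethargus, and 7.58, 8.02, 7.50, 7.68 and 7.52 in Adult. The L4 and lethargus arrays overlapped, and both lay above every Adult array. The L4 mean was 9.45 ± 0.28 and that of lethargus 9.96 ± 0.40 (SD, n = 5 each), and the difference of 0.51 (SE 0.18) was not called (limma adjusted p = 0.0633). That value crossed the threshold in some settings, at an adjusted p of 0.0266 without L4 replicate 3, 0.00818 without lethargus replicate 4, 0.0489 without Adult replicate 2, 0.0202 with array weights and 0.0317 with p-values not doubled, and moved away from it without lethargus replicate 1 (log2 difference 0.38, adjusted p = 0.164).

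**Figure D2:**
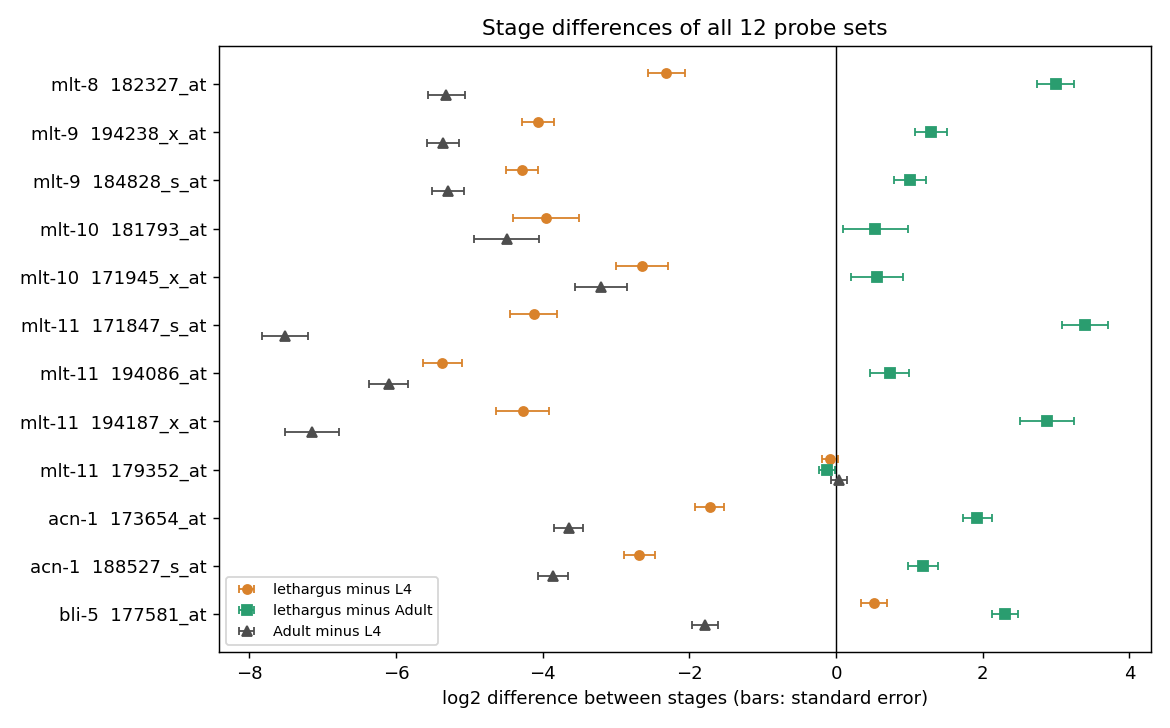
Log2 difference between stages (x axis) for all 12 probe sets, with the standard error of the fit as bars and one marker shape per comparison. Lethargus minus L4 lies between -5.37 and -1.73 for the 10 called probe sets, and the *mlt-11* probe set 179352_at, which is not above background, lies near 0.

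Lethargus was then set against Adult, the stage after it, and the lethargus arrays are those used above. In this comparison 8 of the 12 probe sets, of 5 of the 6 genes, were higher in lethargus, against 25.3% of all probe sets, and on each of the 8 the arrays did not overlap (21.8% of all). The share of rises depends on the scaling. Over all probe sets 5715 were higher and 7147 lower in lethargus, and after median-centring of each array 4086 were higher and 12286 lower, with the median of all probe sets moving from -0.09 to -0.34 in log2. The directions of the 8 called probe sets were the same after it.

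*mlt-8* was 7.98-fold higher in lethargus than in Adult (log2 difference 3.00, SE 0.25, limma adjusted p = 7.60e-08). *bli-5* was 4.92-fold higher (log2 difference 2.30, SE 0.18, limma adjusted p = 2.50e-08). *acn-1* was 3.79-fold higher on 173654_at and 2.27-fold higher on 188527_s_at (limma adjusted p = 7.50e-07 and 0.000215). *mlt-9* was 2.45-fold and 2.01-fold higher on its probe sets (limma adjusted p = 0.000131 and 0.00149).

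For *mlt-11*, whose Adult means gave only a bound, the probe sets above background in L4 shared the direction and not the call. It was at least 4.33-fold higher in lethargus on 171847_s_at and at least 2.73-fold higher on 194187_x_at (limma adjusted p = 2.52e-07 and 7.27e-06). On 194086_at the lethargus and Adult arrays overlapped, and the difference of 0.73 (at least 1.58-fold) was not called (limma adjusted p = 0.0513). Among the alternatives, that p was 0.238 after median-centring and at most 0.154 in leave-one-out fits. A required log2 difference of at least 1 left it uncalled by rule. It lay below 0.05 in 9 alternatives, with a lowest value of 0.00906. These were array weights, the replicate block (0.0209), p-values not doubled (0.0256), the 2 stages alone (0.0451), dim probe sets left out (0.0461), and the fits without L4 replicate 2, L4 replicate 3, lethargus replicate 3 or lethargus replicate 4 (0.0441, 0.0344, 0.0139 and 0.0286).

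*mlt-10* was not called between lethargus and Adult. The differences were 0.53 on 181793_at and 0.56 on 171945_x_at (limma adjusted p = 0.618 and 0.366). Both rested on lethargus replicate 1, and without it they were -0.0033 and 0.08. On neither probe set was the Adult mean above background.

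In the comparison of Adult with L4, which the series design does not name, 11 of the 12 probe sets were lower in Adult, against 28% of all probe sets, and none of the 11 overlapped (23.5% of all). Over all probe sets 7082 were higher and 6308 lower in Adult, and after median-centring 11189 and 4856. These comparisons share arrays with those above. Every gene of the set was lower in Adult on at least 1 probe set. *mlt-11* was at least 75.6-fold lower on 171847_s_at. Its bounds on 194086_at and 194187_x_at were at least 65.0-fold and at least 52.8-fold. *mlt-9* was 41.1-fold and 39.1-fold lower and *mlt-8* 39.8-fold lower. *mlt-10* was at least 21.9-fold lower on 181793_at and at least 4.13-fold lower on 171945_x_at, *acn-1* 12.5-fold and 14.6-fold lower, and *bli-5* 3.44-fold lower (limma adjusted p = 3.34e-07).

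The place of lethargus between L4 and Adult was described on the log2 scale for the called probe sets with an Adult mean above background, with no test between genes. *mlt-8* had covered 43.6% of the L4 to Adult difference in lethargus (21.5% to 54.5% over the 5 arrays). *acn-1* had covered 47.3% on 173654_at (23.3% to 61.7%) and 69.4% on 188527_s_at (46.8% to 86.6%), so its probe sets differed from each other. *mlt-9* had covered 75.9% on 194238_x_at (58.6% to 87.7%) and 81.0% on 184828_s_at (65.1% to 95.1%). The array ranges of *acn-1* overlapped those of both other genes, except that 173654_at lay below *mlt-9* 184828_s_at. All ranges are read from the same 5 arrays, so their overlap does not compare the genes within an array. The low end of each range was lethargus replicate 1. Without it the low ends were 42.1% (*mlt-8*), 45.5% and 69.4% (*acn-1*), and 73.4% and 75.8% (*mlt-9*). The Adult means of *mlt-9* (5.94 and 6.04) and of *acn-1* 188527_s_at (5.94) lay near the background level of 5.38, so these shares may be overstated. No such share is given for *mlt-10* and *mlt-11*, whose Adult means were not above background, or for *bli-5*, whose lethargus and L4 levels were not separated. Of the 12 probe sets, 7, of the 4 genes *mlt-8*, *mlt-9*, *mlt-11* and *acn-1*, were both lower in lethargus than in L4 and higher than in Adult, a pattern that 4.87% of all probe sets had. By level, *mlt-10* had the order L4 above lethargus, with lethargus and Adult not separated, and *bli-5* had L4 and lethargus not separated, both above Adult.

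The lethargus arrays had the largest SD of the 3 stages on 11 of the 12 probe sets, all but 179352_at. The share of all probe sets with that order was not counted, so it is not read as particular to these genes. For *mlt-10* 181793_at the lethargus range was 3.19 log2 units, against 1.21 in L4 and 0.50 in Adult, and for *mlt-8* it was 1.75, against 0.54 and 0.52. The median lethargus range over all probe sets was 0.37. Replicate 1 was the highest lethargus array on 8 of the 12 probe sets, of 5 genes, against 21.9% of all probe sets and 45.5% of those lower in lethargus than in L4. For *mlt-8* the lethargus range fell to 0.66 without replicate 1, and for *acn-1* 173654_at from 1.40 to 0.59.

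*mlt-11* was different in this respect. Replicate 1 was not its highest array, and replicates 2, 5 and 1 (8.53, 8.02 and 7.78 on 171847_s_at) lay above replicates 4 and 3 (6.79 and 6.35). Its range of 2.18 was the same with and without replicate 1. Without replicate 1 the falls from L4 were larger for *mlt-8* (6.11-fold), *mlt-9* (19.7-fold on 194238_x_at) and *acn-1* (3.85-fold on 173654_at), and close to the full value for *mlt-11* (18.3-fold on 171847_s_at). All 10 calls held without it. The part of this array's distance from its stage in the results was not tested.

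**Figure D3:**
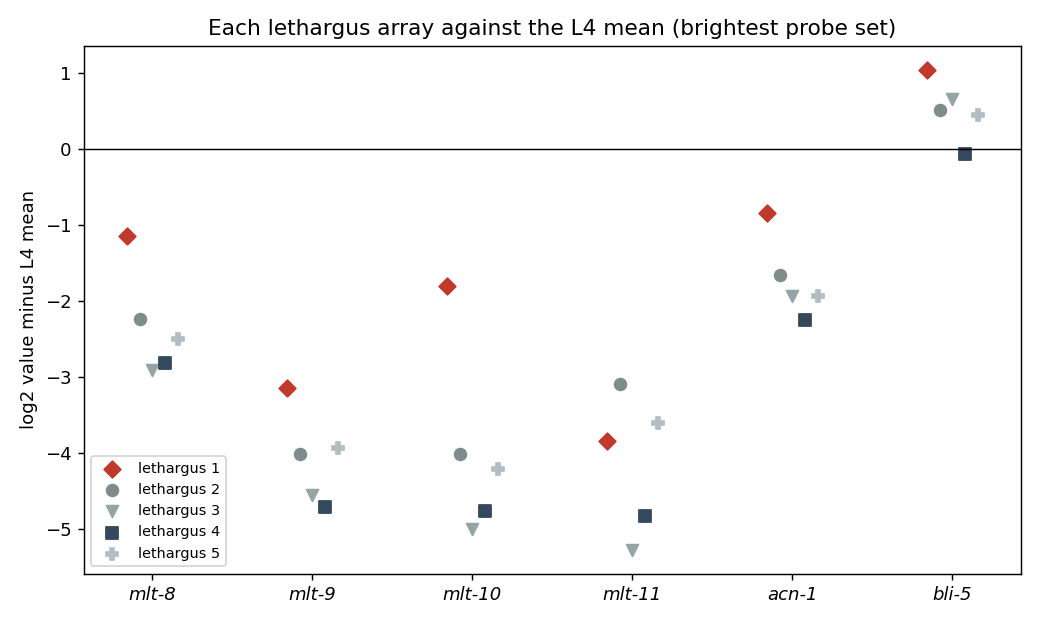
Log2 value of each of the 5 lethargus arrays minus the L4 mean (y axis) for the brightest probe set of each gene, with one marker per replicate. Replicate 1 (red diamonds) is the highest lethargus array for *mlt-8*, *mlt-9*, *mlt-10*, *acn-1* and *bli-5*, and is the middle array for *mlt-11*.

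Other genes of the molt, read from the brightest probe set of each, moved in both directions between L4 and lethargus. Of 56 such genes in 6 lists, each counted once in these totals, 34 were lower in lethargus and 9 higher, against 15.3% and 15.6% of all probe sets. Against Adult, 23 were higher in lethargus and 6 lower (25.3% and 31.7% of all), and 39 were lower and 4 higher in Adult than in L4 (28% and 31.4% of all). These counts move with the scaling, and after median-centring 20 were higher and 18 lower in lethargus than in Adult, and 34 lower and 10 higher in Adult than in L4.

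The *mltn* genes encode relatives of MLT-10, and 10 of 13 were measured. Of these, 3 were lower in lethargus, 0 were higher and 7 were not called, with a median of -0.15. In all, 8 of the 10 were not above background in any stage. *mltn-9* went from 9.69 ± 0.42 in L4 to 4.40 ± 0.41 in lethargus (SD, n = 5 each), at least 19.9-fold lower (limma adjusted p = 1.21e-11). *mltn-12* was at least 9.66-fold lower (limma adjusted p = 5.91e-09), and *mltn-13*, also called, was not above background.

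Of the 10 transcription regulators linked to molting, 7 were lower in lethargus, 0 were higher and 3 were not called, with a median of -0.75. *myrf-1*, a membrane-bound regulator of the molting cycle, went from 9.44 ± 0.34 to 6.71 ± 0.18 (SD, n = 5 each), 6.66-fold lower (limma adjusted p = 4.75e-09). *bed-3* was 4.88-fold lower with overlapping arrays (limma adjusted p = 0.00324), and the period homologue *lin-42* was 2.80-fold lower on the probe set used (log2 difference -1.48), with -0.38 on its other probe set. *nhr-23*, a nuclear receptor needed for the expression of several *mlt* genes and named here after its values were seen, had a mean of 8.65 ± 0.24 (L4), 7.96 ± 0.18 (lethargus) and 8.81 ± 0.26 (Adult; SD, n = 5 each). It fell 1.61-fold from L4 to lethargus (limma adjusted p = 0.0015), and its difference between Adult and L4 was not called (limma adjusted p = 0.626).

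Of the 12 apical matrix and sterol-sensing genes of the molt, 11 were lower and 1 was higher, with a median of -3.71. Named by the size of their falls were *noah-2*, an apical matrix protein with a zona pellucida domain (44.4-fold lower), *qua-1*, a hedgehog-related protein (at least 28.1-fold lower, to a level not above background), and *sym-1*, a secreted leucine-rich repeat protein (20.9-fold lower). The gene that rose, *ptr-23*, is patched-related and was named after its value was seen (4.25-fold higher, limma adjusted p = 6.13e-10). The second probe set of *sym-1* differed by -0.43.

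A list of 10 genes held proteases linked to releasing or processing cuticle and the protease inhibitor gene *swm-1*. Of these, 6 were lower, 3 were higher and 1 was not called, with a median of -0.44. The astacin protease genes *nas-38* and *nas-7* rose 7.77-fold and 7.45-fold (limma adjusted p = 4.83e-09 and 5.37e-05), while *nas-37*, needed to shed the old cuticle, was 7.01-fold lower (limma adjusted p = 1.83e-11). *swm-1*, named here after its value was seen, was 2.34-fold lower (limma adjusted p = 1.05e-06). Whether its product acts on the listed proteases was not tested.

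Of the 9 genes of cuticle cross-linking or collagen hydroxylation, 5 were higher, 3 were lower and 1 was not called, with a median of 0.50. All 9 are named here after their values were seen. The collagen prolyl hydroxylase subunit genes were *phy-2* and *pdi-2*, both lower (log2 differences -2.34 and -0.54), and *dpy-18*, not called (-0.42). Of the rest, *mlt-7*, *bli-3*, *tsp-15*, *doxa-1* and *skpo-1* were higher and *skpo-2* was lower (-1.59). The peroxidase gene *mlt-7*, which shares the molting phenotype of the members, rose 9.48-fold, from 7.86 ± 0.56 in L4 to 11.11 ± 0.39 in lethargus (SD, n = 5 each, limma adjusted p = 1.40e-08), and its second probe set differed by 1.42. The peroxidase gene *skpo-1* was at least 6.43-fold higher, and *phy-2*, a collagen prolyl hydroxylase subunit, was 5.07-fold lower. Of the 5 intracellular *mlt* and NEKL kinase genes, 4 were lower and 1 was not called, with a median of -1.01, among them *mlt-4* (4.60-fold), *mlt-2* (3.33-fold) and *nekl-3* (2.01-fold). The other probe set of *mlt-4* differed by -0.76 in log2, against -2.20 on the one used.

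**Figure D4:**
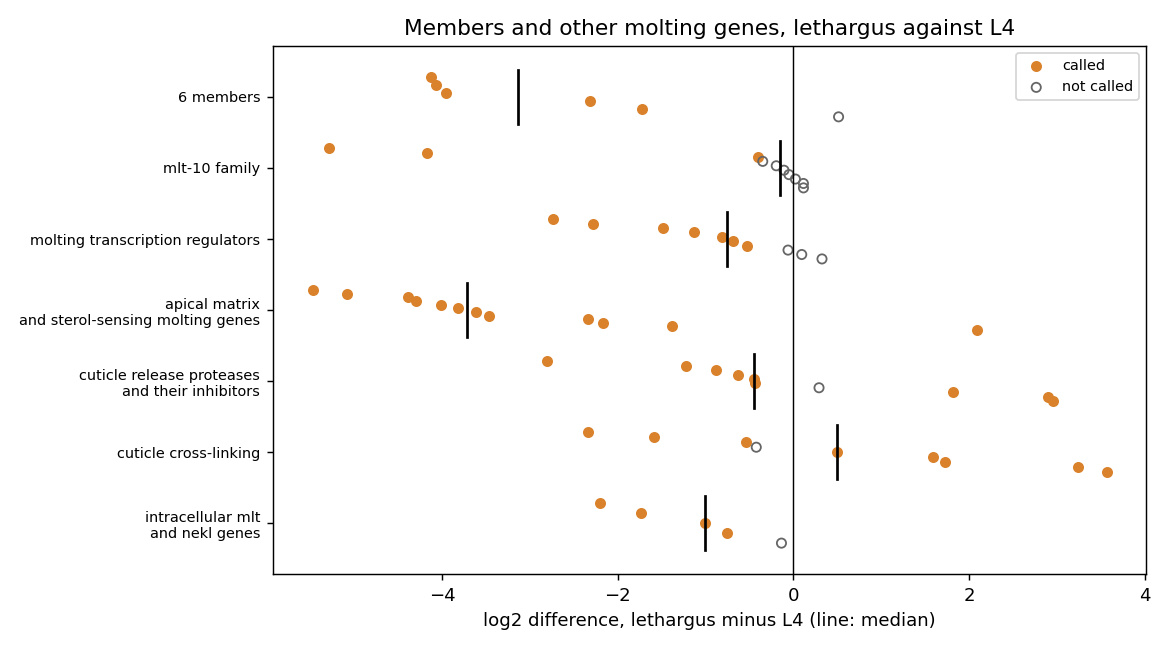
Log2 difference of lethargus minus L4 (x axis) for the brightest probe set of each of the 6 members and of each gene in 6 lists of molting genes. Filled points were called, open points were not, and black lines are medians. The members have 5 called falls and the matrix genes 11 falls and 1 rise. The cross-linking list, which also holds collagen prolyl hydroxylase subunit genes, has 5 rises and 3 falls.

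Epidermal markers were read beside the members. Of 11 epidermal genes not chosen for cycling, 2 were lower in lethargus than in L4, 1 was higher and 8 were not called, with a median of -0.23. Over all probe sets 15.3% were lower and 15.6% higher. The falls were *che-14* (log2 difference -3.57) and *lin-26* (-0.50), and the rise was *mup-4* (1.82), whose L4 arrays ran from 5.93 to 9.34. *elt-3*, not called, is also among the transcription regulators above. The mean level of the list was 9.03 to 9.41 over the L4 arrays, 8.80 to 9.09 in lethargus and 8.50 to 8.77 in Adult. Against L4, 5 of the 11 were lower in Adult and 1 higher (28% and 31.4% of all probe sets). All 11 were above background in at least 1 stage. All 10 oocyte and eggshell markers were higher in lethargus than in L4 and higher in Adult than in lethargus, and the part of either marker list in the members' falls was not tested.

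The genes whose log2 values followed those of the members most closely over the 15 arrays, among 15993 probe sets above background in at least 1 stage, were described by Pearson's r with no test, since all 15 points share the same 3 stages. For *mlt-8* they were F58E6.13 (r = 0.996), the hedgehog-related gene *wrt-6* (0.995) and the astacin gene *nas-29* (0.993). For *mlt-9* they were the hedgehog-related gene *grd-1*, *gtnt-18* and *samt-1* (0.996 each). For *mlt-10* they were the hedgehog-related gene *grd-2* (0.989), F25E5.2 (0.988) and *bus-22* (0.987), and for *mlt-11* they were *gei-13* (0.992), F01F1.15 and C25F9.4 (0.989 each).

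*acn-1* shared its nearest genes with *mlt-8*, in *nas-29* (0.991) and F58E6.13 (0.990), followed by *bus-24* (0.990). *bli-5* had others, namely F53H4.3 (0.990), *glam-1* (0.988) and the glucuronosyltransferase-related gene *ugt-6* (0.987). *ugt-6* had means of 11.27 ± 0.29 (L4), 12.14 ± 0.27 (lethargus) and 9.17 ± 0.11 (Adult; SD, n = 5 each), the same order of means as *bli-5*.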

How the data were processed

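Total RNA (integrity number above 5, per the labels) was amplified and hybridised to Affymetrix *C. elegans* Genome Arrays. The deposited log2 values were made by the authors with RMA, per the submitters' processing notes. The labels name no RMA version or genome build. This method equalises the arrays and leaves a floor of background signal, so an overall change of RNA cannot be read and folds of dim genes are understated.

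Probe sets were named from the platform annotation. Of 22548 probe sets (77 controls left out), 20766 named 1 gene, 887 several and 895 none, and 20701 of those with 1 gene matched the reference gene table (RefSeq, WBcel235) by gene id, which gave the chromosomes. Probe sets ending in _s_at or _x_at (6 of the 12) may share probes with other transcripts. Among them are 194238_x_at and 184828_s_at, the only probe sets of *mlt-9*. They also include 171847_s_at and 194187_x_at, on which *mlt-11* was called higher in lethargus than in Adult.

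The main model was limma 3.58.1 (R 4.3.3; lmFit, eBayes) with 1 mean per stage over all 15 arrays. Following the design text, each p was multiplied by 2, then adjusted by Benjamini-Hochberg over 22548 probe sets. The design's R/maanova was not run. Errors after ± are SDs over 5 arrays. Where the dimmer stage was below background, its mean was set to that level and the change written as at least N-fold. The labels describe separate pools, but nothing states that they came from separate cultures, and a p-value then covers only how much these pools differ. The number of arrays limits the precision.

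Members and lists were chosen with earlier results of these data known. Named genes were all members, in each list at most the 3 called genes with the largest difference from L4, and the 3 most alike genes per member. The fit was tested on simulated independent values with the same spread in each stage. These do not copy the larger lethargus spread of the members. Alternatives were other scalings, filters, priors, weights, thresholds, an exact permutation test, a replicate block, the 2 stages alone and leaving out arrays. Leaving out lethargus replicate 1 and Adult replicate 2 together was added after seeing the data. Sequence features were not analysed here. Figures were drawn with matplotlib 3.10.9.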

Additional observations from a re-analysis of the deposited data

Results flagged for a closer look

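There were 3 values far from the other arrays of their stage, by the gap to the nearest array relative to the whole range of the stage, out of 36 sets of 5 arrays (12 probe sets in 3 stages). Chance flags about 1 in 20 such sets. Lethargus replicate 1 was at 6.69 on the *mlt-10* probe set 171945_x_at, with the other lethargus arrays at 4.09 to 4.55 (0.826 of the range, against a limit of 0.71). Without that array the fall from L4 was still called, at least 4.13-fold (limma adjusted p = 8.31e-12), and lethargus, like Adult, was not above background. L4 replicate 3 was at 9.34 on the *acn-1* probe set 188527_s_at, below the other L4 arrays at 9.86 to 10.02 (0.76 of the range). Adult replicate 1 was at 5.82 on the *mlt-9* probe set 184828_s_at, below the other Adult arrays at 6.06 to 6.15 (0.723 of the range). The cause was not tested in any of the 3.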

How the results depend on the processing

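Of 36 results (12 probe sets in 3 comparisons), 31 kept their direction and side of the threshold under every alternative run, up to 28 each, and 5 did not. *bli-5* passed as higher in lethargus than in L4, 1 probe set in place of 0, with p not doubled (adjusted p = 0.0317), with array weights (0.0202), and in leave-one-out fits, which gave 0 to 1 (without L4 replicate 3, lethargus replicate 4 or Adult replicate 2). The *mlt-11* probe set 194086_at passed as higher than Adult in 9 settings. Its probe set 179352_at, not above background, passed as lower than Adult after median-centring (1 in place of 0), and its Adult minus L4 difference of 0.04 became -0.056 with quantile normalization again and -0.091 with cyclic loess, and ran from -0.065 (without Adult replicate 3) to 0.105 in leave-one-out fits. The *mlt-10* difference from Adult on 181793_at ran from -0.0033 (without lethargus replicate 1) to 0.795 in leave-one-out fits and was -0.0079 without lethargus replicate 1 and Adult replicate 2. Leaving out shared-probe probe sets dropped 6 of the 12 member probe sets, and no member probe set that was kept lost its call. Then 4 were called lower than L4 (10 otherwise), 3 higher than Adult (8) and 5 lower in Adult (11). Of the other molting genes that setting kept 33 of 56. It gave 17 lower and 5 higher than L4 (34 and 9 otherwise). Against Adult it gave 2 lower and 13 higher (6 and 23), and 20 were lower in Adult than in L4 (39). Molting genes lower in lethargus than in Adult numbered 18 after median-centring and 2 with a log2 difference of at least 1. Those higher in Adult than in L4, 4 otherwise, numbered 10 after median-centring, 8 with array weights, 2 with cyclic loess, 2 without dim probe sets, 1 with a log2 difference of at least 1 and 2 to 6 in leave-one-out fits. The cause was not tested. Over all probe sets, same-numbered arrays did not deviate together (correlations of -0.24 to 0.132 over 15 pairs), so the numbers are not read as pairs. On *mlt-11* 171847_s_at, however, replicate 3 was the lowest array of every stage, and the replicate block gave an SE of 0.24 in place of 0.32. On 194086_at replicate 3 was lowest in L4 and lethargus but not in Adult. The replicate block gave 10 members lower than L4, 9 higher than Adult, where 194086_at passed (adjusted p = 0.0209), and 11 lower in Adult, and changed no other member call. With the highest control probe set (5.80) as background, *mlt-11* 171847_s_at was at least 56.5-fold lower in Adult than in L4. The exact permutation test, unadjusted, gave its smallest possible doubled p of 0.0159 wherever arrays do not overlap, so it adds nothing on the called results. Signals near background limit what can be read for *mlt-10* and *mlt-11* in Adult.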

Other observations

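*mlt-10* and *mlt-8* lie close together on chromosome II with 4 protein-coding genes between them in the reference gene table, and the 3 measured ones were not called lower in lethargus than in L4. The lipase-related gene *lips-7* had means of 9.44 ± 0.78 (L4), 9.94 ± 0.79 (lethargus) and 4.42 ± 0.31 (Adult; SD, n = 5 each), and its difference of lethargus from L4 was not called (limma adjusted p = 0.664). It was lower in Adult than in L4 (limma adjusted p = 1.01e-08), and its Adult mean was not above background. C09E8.1 did not differ detectably between lethargus and L4 on its probe sets (log2 differences 0.02 and 0.10, limma adjusted p = 1 for each). W08F4.5, next to *mlt-8*, went the opposite way, from 5.85 ± 0.50 in L4 to 8.61 ± 0.45 in lethargus and 8.31 ± 0.24 in Adult (SD, n = 5 each, limma adjusted p = 1.70e-07 for lethargus against L4). The remaining gene between them, C09E8.6, had no probe set that named it alone.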
